A study of Mus musculus with 2 samples.

Results

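The cells described here are those of a sham-operated mouse kidney library that carried transcripts of the dividing cell. A retained barcode was called proliferating when at least 3 of 8 genes had a value above 0: Mki67, Top2a, Birc5, Cdc20, Cdk1, Ccnb1, Ccna2 and Cenpf. There were 132 such cells among the 10656 retained cells of the library labelled sham, 1.24% of them (exact 95% interval 1.04 to 1.47%). The series holds droplet-based single-cell RNA profiles (10x Chromium version 2, 3′ end) of FVBN mouse kidney cells that the labels give as positive for PDGFR alpha and PDGFR beta, surface receptors of fibroblasts, pericytes and related stromal cells. The treated group was kidney taken 10 days after unilateral obstruction of the ureter (UUO), an operation that blocks urine flow and leads to fibrosis, and the control was a sham kidney. Each group was 1 library, the number and sex of the animals are not given in the sources used here, and cells of 1 library are not replicates. No test between groups was therefore possible, no p-value is given, and every interval covers counting error only.

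A cell that divides first copies its DNA (S phase) and then separates the copies in mitosis. S phase draws on enzymes that make nucleotides, on the MCM helicase and on freshly made histones, while mitosis draws on cyclin B with its kinase Cdk1, on motor proteins of the spindle and on the anaphase-promoting complex, which marks cyclins for destruction. Most cells of an uninjured adult kidney rest outside the cycle, and proliferation of fibroblasts and macrophages is a known part of kidney fibrosis.

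The 8 genes that chose the cells act from S phase to the end of mitosis, and their values are a description of the choice. Birc5, the survivin subunit of the chromosomal passenger complex, had a UMI (a tagged single transcript) in 113 of the 132 proliferating cells (85.6%) and in 1.72% of the other cells. Cdc20, an activator of the anaphase-promoting complex, had one in 93 (70.5%), against 1.68% of the other cells. Cenpf, a kinetochore protein, was in 91 (68.9%), against 3.27%, and Mki67, the Ki-67 protein that coats mitotic chromosomes, in 90 (68.2%), against 0.865%. Ccna2, the cyclin of S phase and G2, was in 89 (67.4%), against 0.428%, and Ccnb1, the mitotic cyclin B1, in 75 (56.8%), against 0.380%. Top2a, the topoisomerase that untangles sister chromatids, was in 70 (53.0%), against 1.83%. Cdk1, the mitotic kinase, was the least selective, with a UMI in 87 proliferating cells (65.9%) and in 9.05% of the other cells. Transcript counts per cell were low even among the proliferating cells, with a highest value of 23 UMIs for Birc5 and Ccnb1 and of 8 for Mki67. Of the Cenpf values, 10.1% were not whole, because the counter shares UMIs among genes they match. Cdc20 overlaps Elovl1 and Ccna2 overlaps Exosc9 on the opposite strand.

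The promoters of these genes are shown because genes of late cell cycle are known to share a pair of short elements, the cell cycle genes homology region (CHR), bound by the DREAM and B-MYB complexes, and the CCAAT box, bound by NF-Y. The 250 bases before the RefSeq start (GRCm38.p6) were searched on both strands for TTTGAA and for CCAAT. RefSeq windows were at hand for 7 of the 8 genes, all but Ccna2. TTTGAA stood in 4 of the 7, against 16% of all 32851 promoter windows, CCAAT in 6 of the 7, against 33.8%, and both in 4 of the 7, against 5.55%. The 4 with both are printed 5′ to 3′ on the gene's strand as the last 150 bases before the start, with matches of TTTGAA and of CCAAT, on either strand, in capitals. They lie at chr4:118437344-118437493 (Cdc20), chr10:69352913-69353062 (Cdk1), chr7:135716380-135716529 (Mki67) and chr11:99024190-99024339 (Top2a), all on the minus strand.
Cdc20: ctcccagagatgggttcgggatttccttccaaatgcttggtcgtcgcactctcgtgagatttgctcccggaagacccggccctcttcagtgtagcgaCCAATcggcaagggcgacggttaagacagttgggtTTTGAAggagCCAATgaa
Cdk1: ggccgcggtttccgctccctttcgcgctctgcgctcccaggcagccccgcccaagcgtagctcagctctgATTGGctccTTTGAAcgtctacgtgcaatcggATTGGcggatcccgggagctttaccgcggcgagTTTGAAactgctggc
Mki67: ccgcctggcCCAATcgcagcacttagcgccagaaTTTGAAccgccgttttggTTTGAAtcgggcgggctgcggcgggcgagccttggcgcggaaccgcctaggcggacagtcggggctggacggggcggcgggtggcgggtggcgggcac
Top2a: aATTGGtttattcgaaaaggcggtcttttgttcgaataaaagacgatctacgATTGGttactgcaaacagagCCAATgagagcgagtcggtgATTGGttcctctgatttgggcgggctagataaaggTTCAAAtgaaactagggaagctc
The CHR letters nearest the start ended 13 bases before it in Cdc20, 10 in Cdk1, 18 in Top2a and 93 in Mki67. Among the windows matched to the other mitotic genes listed below, 13 of 37 held TTTGAA and 11 of 37 held both motifs. Among those of the S phase genes, 2 of 24 held TTTGAA and 15 of 24 held CCAAT. No match of one motif overlaps one of the other in the printed stretches. A match is a stretch of letters and not a measured binding site.

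The choice of 3 genes fell where cells were few. Counted by number of genes with a UMI, 8674 cells had 0, 1677 had 1, 173 had 2, 31 had 3, 20 had 4, 17 had 5, 19 had 6, 24 had 7 and 21 had all 8. Just inside the limit, the 31 cells with 3 genes carried most often Birc5 (21 cells), Cdk1 (15) and Cenpf (14). Just outside it, the 173 cells with 2 genes carried most often Cdk1 (109 cells), Cenpf (61) and Top2a (43). The median number of UMIs from 39 further mitotic genes, none of them among the 8, was 15.8 in cells with 3 genes, 2 in cells with 2 and 1 in cells with 1 or 0.

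Depth bears on the choice, since a deeper cell shows more of its genes. Proliferating cells had a median of 12932 UMIs and 3916.5 genes, against 7765.5 UMIs and 2877.5 genes in the other cells, and 20 of the 132 exceeded 20000 UMIs. With each cell thinned to 2500 UMIs, 61 of 8921 cells (0.684%) met the rule, and thinned to 1000 UMIs, 31 of 10328 (0.300%). At 2500 UMIs Birc5 was detected in 46.8% of the 126 proliferating cells deep enough, against 0.455% of the other cells, and Mki67 in 29.4%, against 0.262%. Mitochondrially encoded transcripts made up a median of 2.08% of UMIs in proliferating cells and 2.20% in the others. Doublets were scored and kept: 7 of the 132 proliferating cells (5.30%) were among the 908 highest doublet scores, against 901 of the 10524 other cells (8.56%). A second sign of doublets, UMIs of both Xist and a Y-linked gene in 1 barcode, was in 33 proliferating cells (25%) and in 12.1% of the others. With at least 3 UMIs of each it was in 4 proliferating cells (3.03%) and in 0.618% of the others. Its part in the results was not tested. The 2 libraries shared 16 barcodes, none of them a proliferating cell.

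To see which lineage the dividing cells carried, the library was clustered without the 8 genes and without the cell cycle lists, and the 21 clusters were named from lineage markers. With those genes left out, the proliferating cells did not form a cluster of their own and lay in 18 of the 21 clusters. Leaving the genes out works against such a cluster, so its absence is not a finding about the cells. Fibroblast-like clusters held 95 of them (72.0%, 63.5 to 79.4%), against 76.4% of the other cells, which lies inside that interval. The macrophage- or dendritic-like cluster held 13 (9.85%, against 3.02% of the other cells) and endothelial-like clusters 8 (6.06%, against 4.84%). The T- or NK-like cluster held 4, the proximal tubule-like cluster 3, the loop- or distal tubule-like cluster 3 and the pericyte- or smooth muscle-like cluster 1. The remaining 5 lay in 2 shallow clusters left unnamed. Each of these 5 had 6 or 7 of the 8 fibroblast markers, on 13 to 125 UMIs, and at most 2 markers of any other lineage. Of the other cells of those clusters, 93.8% had at least 3 fibroblast markers. Endothelial-, leukocyte- and tubule-like clusters together held 31 of the 132 proliferating cells (23.5%, 16.5 to 31.6%), against 1198 of the 10524 other cells (11.4%, 10.8 to 12%). The labels give a sort for both PDGF receptors, which such lineages do not typically carry. Of those 31 cells, 7 had a UMI of both Pdgfra and Pdgfrb, compared with 13.5% of the 1198 other cells and with 79 of the 95 fibroblast-like proliferating cells (83.2%). The count of 31 rests on the clusters. With a class taken from the markers of each cell, 115 of 9758 fibroblast-like, 7 of 286 macrophage- or dendritic-like and 6 of 403 endothelial-like cells were proliferating. So were 3 of 26 T- or NK-like, 1 of 118 loop- or distal tubule-like and 0 of 20 proximal tubule-like cells.

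Relative to the size of its class, the proliferating share was 1.17% of fibroblast-like cells (95 of 8135, 0.946 to 1.43%) and 1.55% of endothelial-like cells (8 of 517, 0.670 to 3.03%). It was 3.93% of macrophage- or dendritic-like cells (13 of 331, 2.11 to 6.62%) and 9.52% of T- or NK-like cells (4 of 42, 2.66 to 22.6%). Among tubule-like cells it was 3.80% of the proximal class (3 of 79, 0.790 to 10.7%) and 1.15% of the loop or distal class (3 of 260, 0.239 to 3.33%). Thinned to 2500 UMIs, the share was 2.30% of macrophage- or dendritic-like cells (5 of 217, 0.752 to 5.29%) and 0.620% of fibroblast-like cells (47 of 7580, 0.456 to 0.824%). In T- or NK-like cells it was 6.67% (2 of 30, 0.818 to 22.1%), and in endothelial-like cells 1.03% (4 of 387, 0.282 to 2.63%). Thinned to 1000 UMIs, macrophage- or dendritic-like and fibroblast-like cells had 0.339% (1 of 295, 0.00858 to 1.87%) and 0.259% (21 of 8098, 0.161 to 0.396%). In T- or NK-like cells it was then 0 of 40, with an exact upper limit of 8.81%. The intervals of the macrophage- or dendritic-like and of the T- or NK-like class were apart from that of the fibroblast-like class at full depth. At 2500 and at 1000 UMIs all of them overlapped, so no order is read between these classes.

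**Figure D1:**
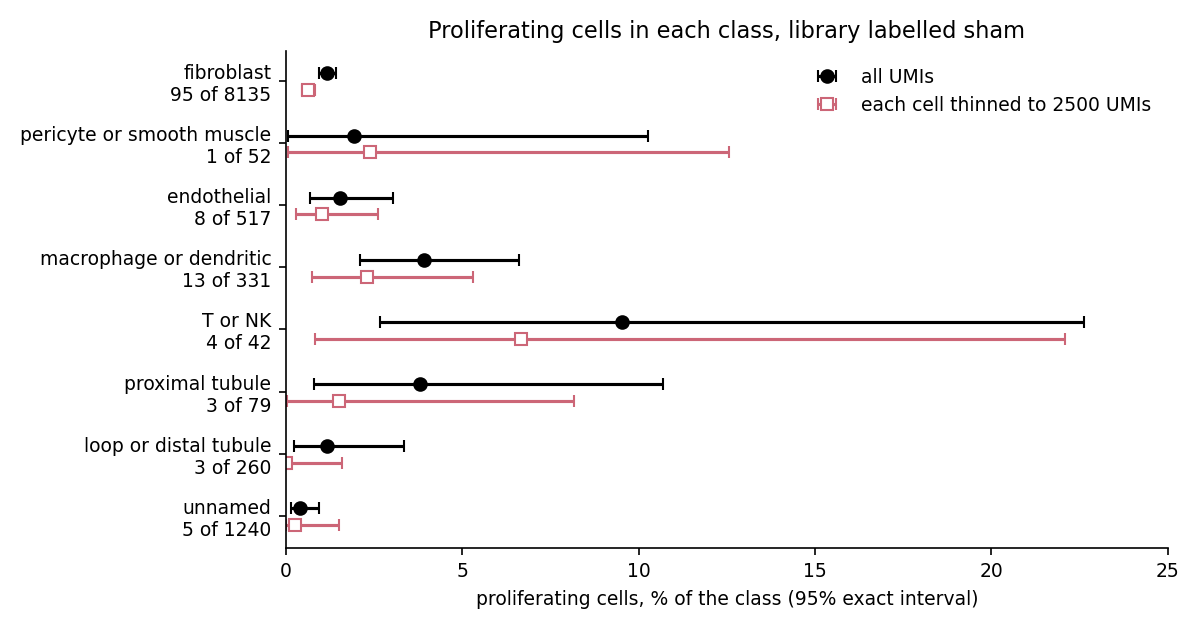
Share of each lineage class that was proliferating in the library labelled sham, in percent, with exact 95% intervals that cover counting error only. Filled circles use all UMIs and open squares use each cell thinned to 2500 UMIs; the T- or NK-like class has the highest point, 9.52%, on 42 cells, and the fibroblast-like class the narrowest interval.

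Within the fibroblast-like class the proliferating cells were spread over 10 of 12 clusters. The share was 3.23% in the smallest, led by Ccl11, Car3 and Foxf1, on 1 of 31 cells (0.0816 to 16.7%). It was 3.11% in a cluster led by Meg3, Apod and Sfrp4 (6 of 193, 1.15 to 6.64%) and 2.31% in a cluster led by Rxfp1, Penk and Actg2 (15 of 649, 1.30 to 3.78%). The cluster led by Rxfp1 has Cnn1, a smooth muscle marker, among its 10 leading genes and no fibroblast marker there. A shallow cluster with a median of 2756.5 UMIs had the lowest share above 0 (7 of 1192, 0.587%, 0.236 to 1.21%). No proliferating cell was found among 104 cells led by Cldn11, Cdkn1c and Igfbp5 (exact upper limit 3.48%) or among 59 cells led by the interferon-induced genes Cxcl10, Ifit3 and Ifit1 (exact upper limit 6.06%). Taken as 3 counts of the total, the limits that a count of 0 allows are 2.88% and 5.08%.

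The proliferating cells carried the genes of the lineage in which they lay, which is a description, since these genes also shaped the clusters. All 95 fibroblast-like proliferating cells had a UMI of Col1a1, Col1a2, Col3a1 and Dcn, the fibrillar collagens and the collagen-binding proteoglycan decorin. Pdgfra was in 85 of them (89.5%, 184 CPM, the UMIs of a gene scaled to all UMIs of the summed cells), against 79.1% (244 CPM) of the other fibroblast-like cells. Pdgfrb was in 87 (91.6%, 243 CPM), against 83.6% (297 CPM), and Tcf21, a transcription factor of kidney stroma, in 80 (84.2%, 270 CPM), against 80.4% (399 CPM). The 8 fibroblast markers together reached 11751 CPM in proliferating and 12472 CPM in other fibroblast-like cells. None of these 95 cells had 3 or more of the 6 shared leukocyte markers, whose sum was 28.2 CPM, against 33.7 CPM in the other fibroblast-like cells, and the T or NK markers summed to 4.45 CPM, against 5.45 CPM. The neutrophil or monocyte markers summed to 816 CPM, against 688 CPM, with none of the 95 cells at 3 or more of them. Nearly all of both sums was 1 gene, Plac8, at 813 CPM in 94.7% of proliferating and 683 CPM in 87.8% of other fibroblast-like cells. The B or plasma markers summed to 1597 CPM, against 5.05 CPM, with 2149 UMIs in 1 cell and a median of 0. At least 3 endothelial markers had a UMI in 23 of the 95 proliferating cells, against 8.11% of the other cells, and at least 3 macrophage or dendritic markers in 20, against 11.7%. The summed endothelial markers stood at 264 CPM in proliferating and 290 CPM in other cells, and the macrophage or dendritic markers at 194 CPM, against 222 CPM. At least 3 pericyte or smooth muscle markers had a UMI in 25 of the 95 proliferating cells, against 9.64% of the other cells, and here the sum was higher too, at 362 CPM, against 297 CPM. Within that panel Cnn1, the smooth muscle protein calponin, stood at 58.5 CPM in 20% of proliferating cells, against 12.3 CPM in 5.16% of other cells. Cnn1 is a leading gene of the cluster led by Rxfp1, which held 15 of the 95 proliferating cells and 649 of the 8135 fibroblast-like cells. The part of this make-up in the difference was not tested. The highest sum of the panel in 1 proliferating cell was 68 UMIs, against a median of 3. Thinned to 1000 UMIs, a UMI of the panel was in 26.3% of proliferating and 23.0% of other fibroblast-like cells.

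The 13 macrophage- or dendritic-like proliferating cells all had a UMI of Cd74, the invariant chain of antigen presentation (17243 CPM, against 29094 CPM in the other cells of the class), and 12 had Lyz2, lysozyme (8884 CPM, against 8579 CPM). The complement genes C1qa, C1qb and C1qc, typical of resident macrophages, were each in 8 of the 13, against 80.2 to 81.8% of the other cells of the class. C1qa stood at 2440 CPM in proliferating and 4406 CPM in other cells of the class, and Csf1r, the receptor of macrophage growth factor, in 9 of 13 at 733 CPM, against 1137 CPM. All 13 also had at least 5 of 6 shared leukocyte markers. Collagen transcripts were found here too: 12 of the 13 had a Col1a1 UMI at 370 CPM, against 63.8% and 629 CPM in the other cells of the class. The fibroblast-like proliferating cells had 2566 CPM. Of the 13 cells, 2 were among the highest doublet scores, and the part of doublets or of free RNA in these collagen UMIs was not tested. The median depth was 12161 UMIs in the 13 cells and 4949.5 in the other cells of the class.

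The 8 endothelial-like proliferating cells all had UMIs of Cdh5 (VE-cadherin, 230 CPM, against 372 CPM in other endothelial-like cells), Emcn, Plvap (a protein of fenestrated endothelium, 1390 CPM, against 2672 CPM) and Egfl7. In the fibroblast-like proliferating cells Cdh5 had 0 UMIs. Each of the 8 cells had between 7 and 87 UMIs of the 8 endothelial markers, with a median of 41, and 1 of the 8 also had 310 UMIs of the fibroblast markers at a depth of 31271 UMIs. The 4 T- or NK-like proliferating cells all had UMIs of Cd3e, Cd3d, Cd3g, Trbc2, Cd2 and Lck, parts of the T cell receptor complex, a T cell adhesion receptor and the kinase that signals from it. Cd3e stood at 561 CPM in them, against 427 CPM in the other cells of the class. Nkg7, a gene of cytotoxic granules, was in 1 of the 4, and 1 of the 4 was among the highest doublet scores. In the 95 fibroblast-like proliferating cells Cd3d, Cd3g and Trbc2 had 0 UMIs.

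The tubule-like proliferating cells were few. The 3 in the loop or distal class had 108, 241 and 304 UMIs of that class's markers, and all 3 had Umod, uromodulin of the thick ascending limb, Slc12a3, the salt transporter of the distal convoluted tubule, and Epcam. Umod stood at 1075 CPM, against 3891 CPM in the other cells of the class, and Slc12a3 at 853 CPM, against 216 CPM. Slc12a1 of the same panel was in 1 of the 3, at 21.1 CPM, against 285 CPM. Umod also had a UMI in 27 of the 95 fibroblast-like proliferating cells, at 46.7 CPM. The 3 loop or distal cells were also deep, with 13559, 35687 and 45669 UMIs, and carried 3 to 6 of the 8 genes. Of the 3 in the proximal class, 1 had 156 UMIs of proximal tubule markers, 1 had 1 and 1 had 0, so that the class label was carried by its own markers in 1 of them. The single pericyte- or smooth muscle-like cell had all 8 genes, with Rgs5 at 3882 CPM, against 1916 CPM in the rest of that cluster, and no UMI of Ren1 (renin), which stood at 20673 CPM in the rest.

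**Figure D2:**
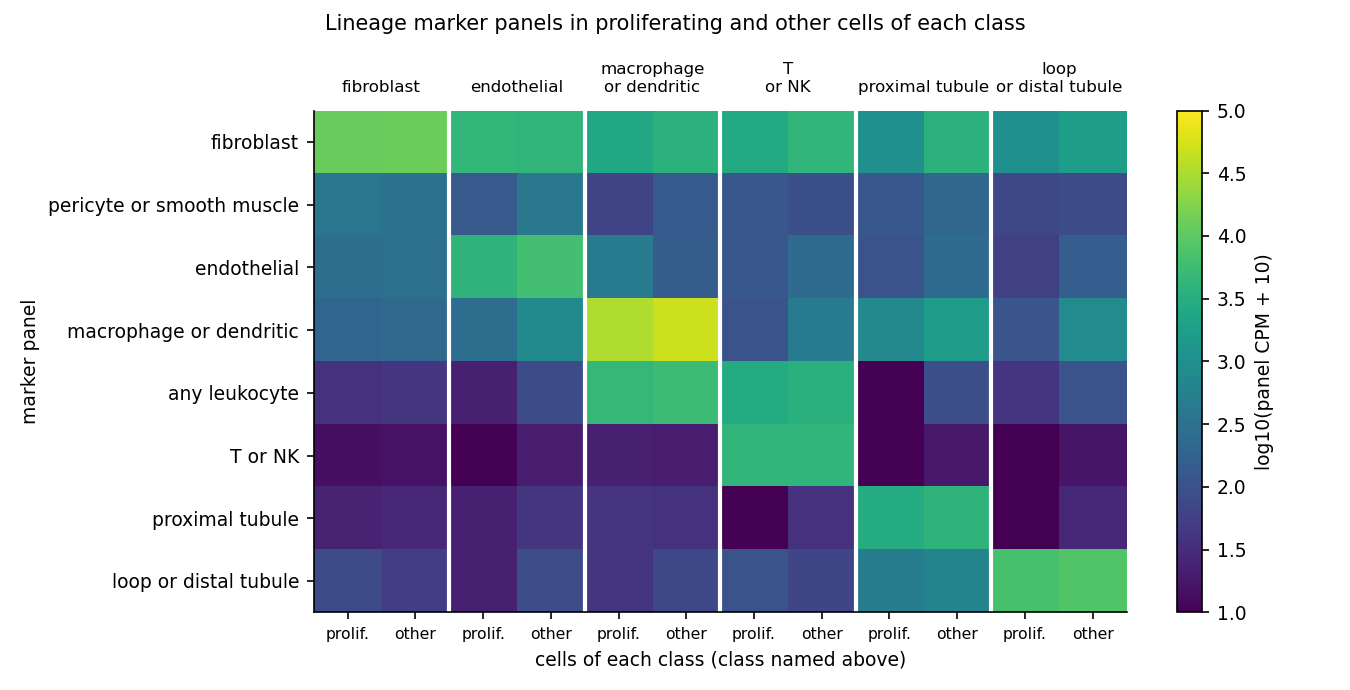
Summed level of 8 lineage marker panels (rows), as log10 of CPM plus 10, in proliferating and other cells of 6 lineage classes (column pairs, proliferating on the left). In both columns the panel of a class's own lineage is higher than in the other classes shown, for example 11751 and 12472 CPM of fibroblast markers in the fibroblast-like class. It is not always the highest panel within a class: endothelial-like proliferating cells had 4364 CPM of fibroblast and 4038 CPM of endothelial markers. The value of the proximal tubule-like proliferating cells rests mostly on 1 cell.

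The balance of S phase and mitotic transcripts varied widely from cell to cell. UMIs of 24 S phase genes ran from 0 over a median of 11.8 to 88.6 in the 132 cells, and UMIs of the 39 mitotic genes from 0 over a median of 49.9 to 273. Mitotic transcripts outnumbered or equalled those of S phase in 102 cells and S phase transcripts led in 30. The S phase share of both sums was above 80% in 9 cells and under 20% in 75. Most of the 8 genes are at their highest in G2 and mitosis, so the rule itself favours such cells. The median S phase share was 16.8% in the 95 fibroblast-like cells, 43.4% in the 13 macrophage- or dendritic-like cells and 32.5% in the 8 endothelial-like cells, with ranges that overlapped. Fewer than 10 UMIs of both sums were present in 10 cells, 8 of which had 3 of the 8 genes, the least the rule allows.

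**Figure D3:**
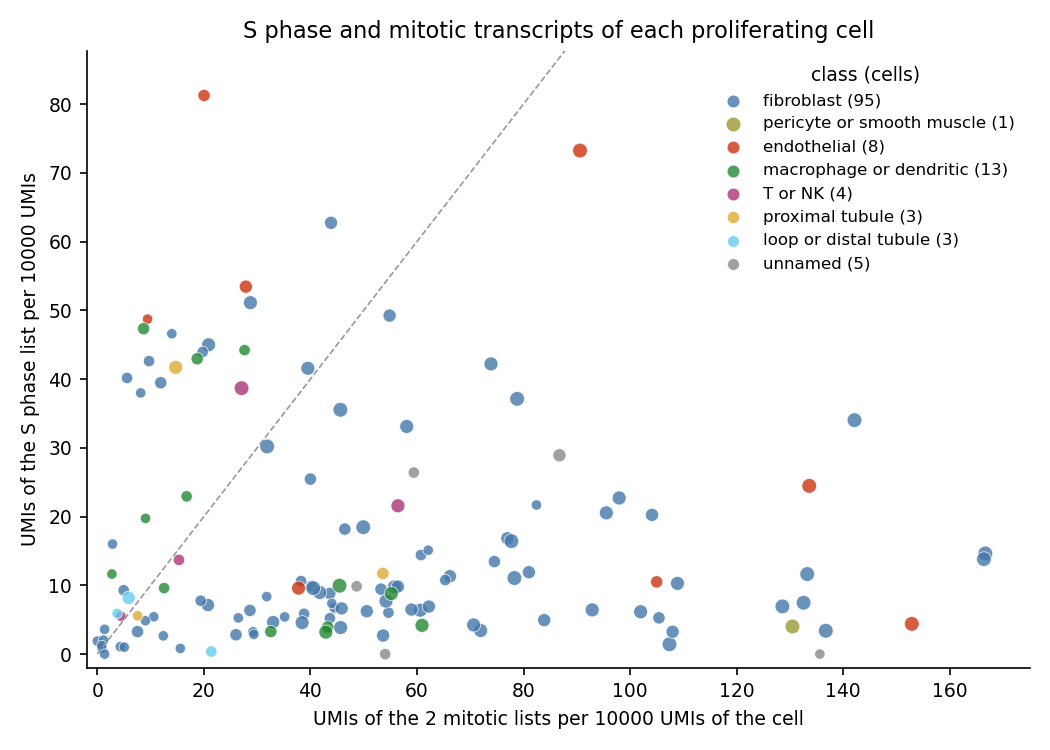
UMIs of the S phase list (vertical) against UMIs of the 2 mitotic lists (horizontal), both per 10000 UMIs, for each of the 132 proliferating cells, coloured by class and larger with more of the 8 genes. The dashed line marks equal amounts; 102 cells lie on or below it and 30 above.

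Among fibroblast-like cells, the levels of the cell cycle lists rose in steps with the number of the 8 genes. The mitotic lists stood at 152 CPM in cells with 0 of the genes, 166 with 1, 301 with 2, 1507 with 3, 3694 with 4 or 5 and 6882 with 6 to 8. The S phase list stood at 304, 316, 358, 786, 1550 and 1684 CPM in the same order. Chromosome packing and tubulin genes stood at 2509, 2643, 3018, 5865, 9915 and 13766 CPM. As a ratio, the step between neighbouring groups was largest between 2 genes (144 cells) and 3 (24 cells) in all 3 sums.

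**Figure D4:**
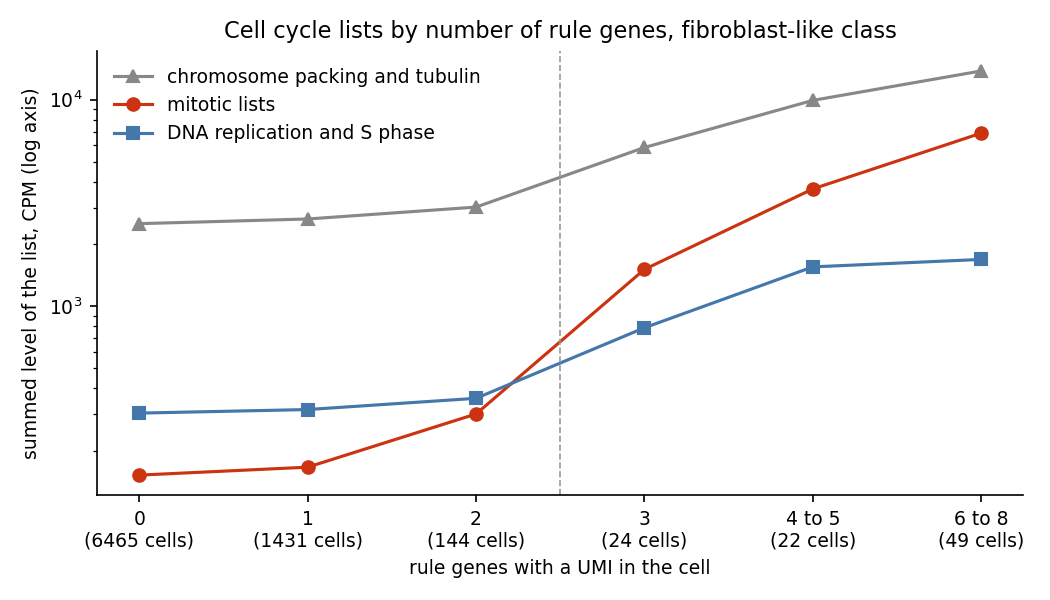
Summed level of 3 lists, in CPM on a log axis, in fibroblast-like cells grouped by how many of the 8 genes had a UMI. The dashed line is the limit of the rule; the mitotic lists reach 6882 CPM at 6 to 8 genes, against 152 CPM at 0.

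For a comparison of genes within 1 lineage, UMIs were summed over the 95 proliferating and the 8040 other fibroblast-like cells. Of 8959 genes with at least 10 CPM in either sum, 4.3% were higher in the proliferating cells by 2-fold or more and 0.993% were lower by that much, on a log2 scale with 5 CPM added. The higher ones were 385 genes, 88 of them in the 6 cell cycle lists or among the 8 genes and 297 outside, and the lower ones were 89 genes, none of them in those lists. The median log2 ratio over all 8959 genes was -0.00189. These values describe the contrast that the rule itself made, and cells of 1 library give no test. The 6 cell cycle lists other than the 8 genes, summed, were 4.94-fold higher in proliferating cells.

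DNA replication genes were higher nearly throughout, 20 of 21 measured genes by at least 2-fold, with a median log2 ratio of 1.87. Tk1, thymidine kinase, stood at 158 CPM in proliferating and 3.09 CPM in other fibroblast-like cells, 51.2-fold (42.2 to 62.0). Rrm2, the regulated subunit of ribonucleotide reductase, stood at 166 and 13.9 CPM, 12-fold (10.3 to 13.8). The MCM helicase subunits ran from Mcm4, 27.4 CPM in proliferating and 10.8 CPM in other cells, to Mcm5, 38.5 and 2.42 CPM. Without the 1 cell with most of its UMIs, Mcm4 was under 2-fold, at a log2 ratio of 0.91. Pcna, the sliding clamp, was 3.69-fold higher (3.15 to 4.30), and Slbp, which binds histone mRNA, was the 1 measured gene under 2-fold, at a log2 ratio of 0.87.

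Mitotic kinases, checkpoint and anaphase-promoting complex genes were at least 2-fold higher for 15 of 16, with a median log2 ratio of 3.34. Ccnb2, cyclin B2, stood at 299 CPM in proliferating and 3.11 CPM in other cells, 96.2-fold (81.5 to 114), and was found in 72 of the 95 cells. Cks2, a small subunit of Cdk complexes, stood at 599 and 13.5 CPM, and Ube2c, the ubiquitin-conjugating enzyme of the anaphase-promoting complex, at 184 and 1.25 CPM. Plk1, Aurka and Aurkb, the kinases of mitotic entry and of the spindle, were 152-fold, 82.4-fold and 51.5-fold higher, on 74, 68 and 57 UMIs in the proliferating cells. Ttk, a kinase of the spindle checkpoint, stood at 18.5 and 0.792 CPM. It had the second lowest log2 ratio with 5 CPM added, 2.02, a scale that damps ratios of genes at low levels. Fzr1, the activator of the complex in G1, was the gene under 2-fold on the log2 scale with 5 CPM added, at 51.9 and 24.8 CPM and a log2 ratio of 0.93.

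All 23 spindle, kinetochore and cytokinesis genes were at least 2-fold higher, with a median log2 ratio of 3.77. Tpx2, a spindle assembly factor, was in 69 of the 95 cells at 165 CPM, against 1.10 CPM in other cells, and Hmmr, a spindle-associated protein, stood at 137 and 0.570 CPM. The lowest of the list on the log2 scale with 5 CPM added were Ndc80, a kinetochore protein (44.5 and 4.18 CPM, log2 ratio 2.43), and Kif11. Kif11, the motor that separates the poles, stood at 16.3 and 0.470 CPM, with a log2 ratio of 1.96. All 15 chromosome packing and tubulin genes were also at least 2-fold higher, by a median log2 ratio of 2.75. Stmn1, stathmin, which destabilises microtubules, stood at 1271 and 92.9 CPM, Lmnb1, lamin B1 of the nuclear envelope, at 163 and 9.76 CPM, and H2afz, a histone H2A variant, at 2661 and 439 CPM. Tubb5, a beta tubulin, and Hmgb1, a chromatin protein, were the least changed, at 2.12-fold and 2.22-fold.

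Of 10 replication-dependent histone genes, 6 had at least 10 CPM, and 5 of these were at least 2-fold higher. Hist1h2ap stood at 491 CPM in proliferating and 1.01 CPM in other cells and was found in 43 of the 95. Hist1h2ae stood at 47.6 and 1.31 CPM, and Hist1h1c, a linker histone, at 349 and 139 CPM. Hist1h2bc, at 308 and 236 CPM, stayed under 2-fold. Most of these mRNAs lack the poly(A) tail that 3′ libraries capture, and near-identical copies share UMIs, so their values are uncertain.

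The genes that govern entry into the cycle did not move as one. Of the G1 cyclins, E2F factors and G1 kinases, 6 of 12 had at least 10 CPM, and 2 of these were at least 2-fold higher, E2f1 (19.3 CPM in proliferating and 5.90 CPM in other cells, 26 UMIs) and Ccne1, cyclin E1 (13.3 and 3.46 CPM, 18 UMIs). Without the 1 cell with most UMIs of each, their log2 ratios were 0.99 and 0.94. Ccnd3 and Cdk4 stood at 140 and 120 CPM and at 347 and 263 CPM. Ccnd2, cyclin D2, and Cdk6 lay below the other cells, at log2 ratios of -0.68 and -0.59.

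Among cell cycle inhibitors and quiescence genes, 11 of 14 were measured, of which 3 were higher and 1 was lower by 2-fold or more. The lower one was Cdkn1c, the inhibitor p57, at 32.6 CPM in proliferating and 111 CPM in other fibroblast-like cells, 3.40-fold lower (2.53 to 4.68), with a UMI in 30.5% of proliferating and 38.1% of other cells. The higher ones were Cdkn2c, the Cdk4 and Cdk6 inhibitor p18 (96.3 and 28.9 CPM, 3.33-fold, 2.77 to 3.98), Cdkn2d, the inhibitor p19 (95.6 and 40.2 CPM, 2.38-fold, 1.98 to 2.84), and Rbl1, the pocket protein p107 (11.9 and 2.71 CPM). The level of Rbl1 lay near the 10 CPM needed for a gene to be measured. Cdkn1b, the inhibitor p27, stood at 27.4 and 21.7 CPM, and Cdkn1a, the p53 target p21, at 63.0 and 31.4 CPM, with 30.6% of its UMIs in 1 cell. Btg1 and Btg2, antiproliferative genes, had log2 ratios of -0.23 and -0.33.

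Growth genes differed less. Summed, they stood at 2248 CPM in proliferating and 1395 CPM in other fibroblast-like cells, 1.61-fold (1.55 to 1.67), with most of the difference in Ran. Of 10, only Ran, the GTPase of nuclear transport and spindle assembly, was at least 2-fold higher, at 924 CPM in proliferating and 262 CPM in other cells, 3.53-fold (3.33 to 3.74). The nucleolar proteins Nop58 and Nop56 had log2 ratios of 0.87 and 0.81, and Myc one of -0.19, at 25.9 and 30.2 CPM. Eif4ebp1, which restrains the start of translation, stood at 147 and 148 CPM.

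Most measured fibroblast identity genes lay within 2-fold of the other cells. So did most of all 8959 genes, of which 4.3% were higher and 0.993% lower by 2-fold or more. Summed, matrix and contractile genes stood at 0.903 of the level of the other cells (0.895 to 0.911). Resting fibroblast genes stood at 0.723 (0.715 to 0.731), and genes high in fibroblasts of the library labelled sham at 0.700 (0.676 to 0.724). The matrix and contractile sums were 37179 CPM in proliferating and 41167 CPM in other cells, with Spp1 alone at 6920 and 12564 CPM of them. The gap in Spp1 was wider than that of the whole sum, so the other genes of the list, summed, were not lower. Of 20 matrix and contractile genes, 1 was at least 2-fold higher and none lower, with a median log2 ratio of 0.01. That gene was Timp1, an inhibitor of matrix proteases, at 1487 CPM in proliferating and 703 CPM in other cells, but 1 cell held 28% of its UMIs, and without it the log2 ratio was 0.64. Acta2, smooth muscle actin, stood at 2689 and 1490 CPM, 1.81-fold (1.75 to 1.87), and Tpm2, a tropomyosin, at 728 and 389 CPM. Col1a1 stood at 2566 and 2400 CPM and Postn, periostin, at 114 and 79.4 CPM. At the other end were Spp1, osteopontin, at 6920 and 12564 CPM, and Ccn2, connective tissue growth factor, at 100 and 179 CPM, both within 2-fold. Without the 1 cell with most UMIs of each, their log2 ratios were -1.03 and -1.07.

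Of 14 resting fibroblast genes 13 were measured and all lay within 2-fold, with a median log2 ratio of -0.25. The lowest were Apoe, apolipoprotein E, at 953 CPM in proliferating and 1727 CPM in other cells, and Clec3b, tetranectin, at 7.41 and 15.7 CPM. Clec3b had 10 UMIs in the proliferating cells, 7 of them in 1 cell, and its log2 ratio of -0.74 was -1.51 without that cell and -2.38 with the other cells weighted to the clusters of the proliferating cells. The highest were Cd34, a surface sialomucin, at 57.8 and 34.1 CPM, and Lum, lumican, at 286 and 161 CPM. The log2 ratio of Lum was 0.81, 1.1 in cells with at least 4 of the 8 genes and -0.18 under that weighting. Mgp, matrix Gla protein and the most abundant of the list, stood at 18375 and 26244 CPM. The whole resting list summed to 24341.5 and 33679.9 CPM, so most of its difference was that of Mgp. All 10 genes chosen because they were high in fibroblasts of the library labelled sham were within 2-fold as well, 9 of them below the other cells, with a median log2 ratio of -0.53, from Npr3, the natriuretic peptide clearance receptor, at -0.90 and Clca3a1 at -0.76 to Agtr1a, the angiotensin II receptor, at -0.28 and Nppc, a natriuretic peptide, at 0.11. Without the 1 cell that held 46.7% of the Nppc UMIs, its log2 ratio was -0.63. All 10 immediate early and heat shock genes, which rise when tissue is dissociated, were within 2-fold, from the heat shock proteins Hspa1a at -0.82 and Hspa1b at -0.59 to the transcription factors Fosb at 0.02 and Atf3 at 0.03. Without the 1 cell with most UMIs of each, Npr3, Clca3a1 and Hspa1a stood at -1.05, -1.03 and -1.05.

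**Figure D5:**
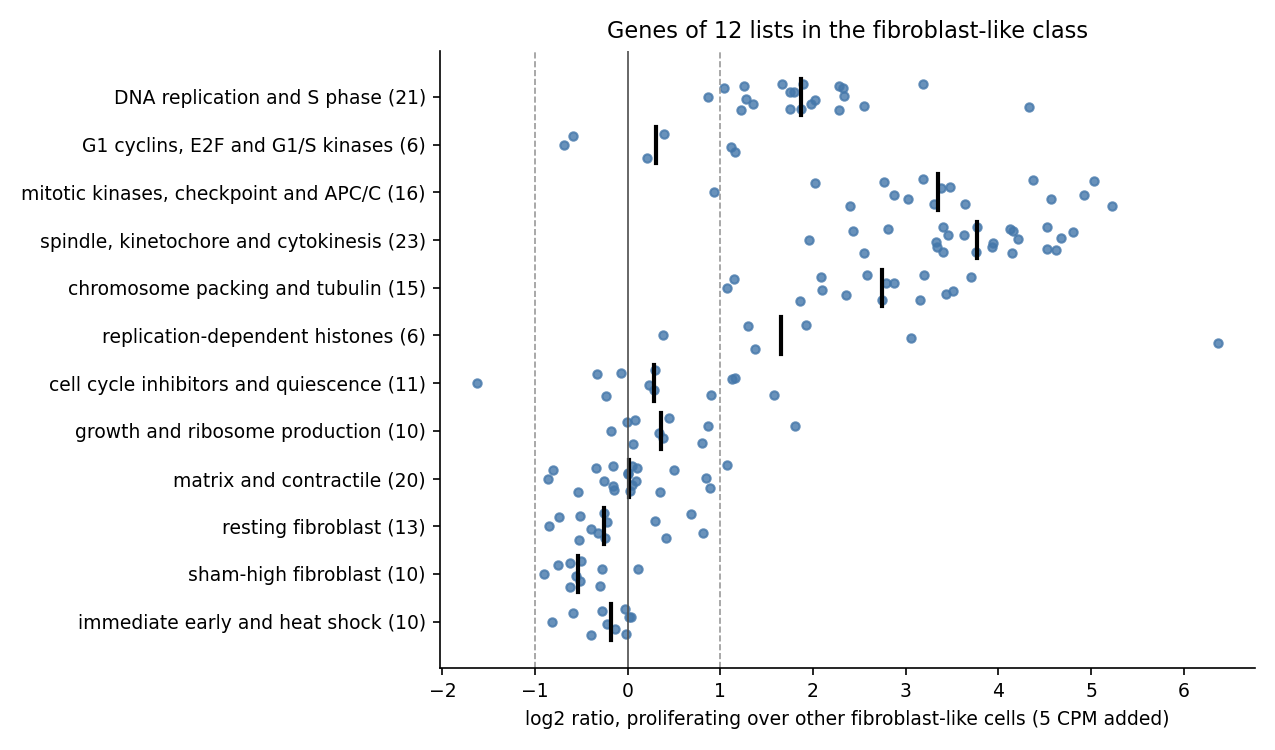
Log2 ratio, with 5 CPM added, of proliferating over other fibroblast-like cells for each measured gene (points) of 12 lists, with the median of each list (bars) and 2-fold in either direction (dashed lines). The spindle list has its median at 3.77, while the matrix and contractile list has its median at 0.01.

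Most of the 12 genes with the highest log2 ratios (5 CPM added) outside the lists are also known from the cell cycle. Cdca8, borealin of the chromosomal passenger complex, stood at 178 CPM in proliferating and 1.68 CPM in other fibroblast-like cells and was in 68 of the 95. Pclaf, a PCNA-binding protein, stood at 319 and 8.94 CPM in 78 of the 95, and Cdca3, which promotes mitotic entry, at 158 and 1.43 CPM. Pimreg, Knstrn, Cenpm, Mxd3, Pbk and the long noncoding RNA Lockd were 294-fold, 85.0-fold, 57.7-fold, 283-fold, 277-fold and 20.6-fold higher. Knstrn is a spindle protein, Cenpm a centromere protein, Mxd3 a partner of MAX and Pbk a mitotic kinase. The histone genes Hist1h2ao and Hist1h2ag were also among the 12, with 72.1% of the Hist1h2ag UMIs in 1 cell. The highest of the 12 by log2 ratio with 5 CPM added was Apod, apolipoprotein D, at 1033 and 10.3 CPM. Of its 1395 UMIs, 99.7% lay in 1 cell, and without that cell its level was 3.02 CPM, below that of the other cells.

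The 12 genes most lowered outside the lists changed by less. Tcp11l2 stood at 22.2 CPM in proliferating and 75 CPM in other fibroblast-like cells, 3.37-fold lower, and Klhdc8b at 16.9 and 56.0 CPM, 3.28-fold lower. Ogt, the enzyme that attaches O-linked N-acetylglucosamine to proteins, stood at 71.1 and 192 CPM, 2.70-fold lower, with a UMI in 52.6% of proliferating and 76.7% of other cells. Ndrg2, Art4, Lrrk1, Slc40a1 (the iron exporter ferroportin), Ramp3 (a co-receptor of the calcitonin receptor family), Sorbs2, Fgl2, Gdpd3 and Tmem150a were 2.86-fold to 2.31-fold lower, on 26 to 52 UMIs each in the proliferating cells.

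The S phase and mitotic lists were also higher in proliferating cells of the other lineages than in the other cells of their own class. The mitotic lists stood at 2604 CPM in macrophage- or dendritic-like proliferating cells and 168 CPM in the other cells of that class, 15.5-fold (13.3 to 18.1). In endothelial-like cells they stood at 6034 and 164 CPM, 36.7-fold (32.2 to 41.8), and in T- or NK-like cells at 2831 and 404 CPM, 6.95-fold (5.28 to 9.22). In fibroblast-like cells the same ratio was 30.9-fold (30.0 to 31.9). It was 9.77-fold (7.55 to 12.6) in the 3 proximal tubule-like cells and 3.84-fold (2.93 to 4.96) in the 3 loop- or distal tubule-like cells. The S phase list was 4.30-fold, 7.82-fold, 5.37-fold and 4.68-fold higher in the macrophage- or dendritic-like, endothelial-like, T- or NK-like and fibroblast-like proliferating cells. The S phase list was 4.75-fold higher in proximal tubule-like and 1.96-fold higher in loop- or distal tubule-like proliferating cells. The ratio of the G1 list was 0.834 (0.571 to 1.18) in loop- or distal tubule-like cells, 1.23 (0.883 to 1.69) in T- or NK-like cells and 2.08 (1.53 to 2.79) in proximal tubule-like cells. It was 1.36 (1.07 to 1.69) in macrophage- or dendritic-like and 1.46 (1.15 to 1.84) in endothelial-like cells. The histone list had a ratio of 1.28 (0.885 to 1.79) in loop- or distal tubule-like cells and 2.06 (1.44 to 2.87) in proximal tubule-like cells. Its ratio was 5.68 in macrophage- or dendritic-like, 6.30 in T- or NK-like and 17.2 in endothelial-like cells. Stmn1 was higher in the macrophage- or dendritic-like and endothelial-like cells, at 943 CPM in macrophage- or dendritic-like proliferating cells and 90.0 CPM in the other cells of the class, and at 2285 and 88.0 CPM in endothelial-like cells. Btg1 was lower in T- or NK-like proliferating cells (289 CPM, 18 UMIs) than in the other cells of that class (1389 CPM), a ratio of 0.208 (0.121 to 0.335).

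In the library labelled UUO the same rule found 5 of 1052 retained cells (0.475%, 0.154 to 1.11%), against 132 of 10656 in the library labelled sham (1.24%, 1.04 to 1.47%). The UUO library was shallower, with a median of 4153 UMIs in its other cells, against 7765.5 in the sham library, and with 1 library per group depth and treatment cannot be told apart. The 5 cells had 1228, 1296, 7483, 9572 and 10191 UMIs and carried 4, 3, 4, 7 and 3 of the 8 genes. Those with 7483 and 9572 UMIs had all 8 endothelial markers, on 83 and 68 UMIs. The one with 10191 UMIs had all 8 fibroblast markers, on 65 UMIs, and 5 endothelial markers on 7 UMIs.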

How the data were processed

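Kidney cells of FVBN mice were digested with enzymes and profiled by droplet-based 3′ sequencing (10x Chromium version 2), per the labels. The authors deposited 1 matrix of expected counts (UMIs) per library, made with alevin of Salmon 0.13.1 on mm10, per the submitters' processing notes, and not normalised. Alevin shares UMIs between genes, and 92.3% of nonzero sham values were whole at a tolerance of 1e-06. No source used here states which barcodes were dropped before deposit. Totals were 6023072 UMIs over 1291 barcodes labelled UUO and 85359332 over 10812 labelled sham. A barcode was retained from 500 UMIs and 300 genes upward if mitochondrial UMIs did not exceed 20%.

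Cells were scaled to 10000, log-transformed, reduced to 30 components of 2000 variable genes and clustered (Leiden, 20 neighbours, resolution 1, scanpy 1.11.5). The 8 genes of the rule and the cell cycle lists were left out. A class name needed 4-fold higher levels than in the other cells for 3 or more of its markers and for 40% of them. Failing that, a cluster was fibroblast-like if 3 or more fibroblast markers reached 25% of cells and their median log2 ratio was not under -1. Clusters under 0.333 of the library's median depth with no such marker among 10 leading genes stayed unnamed. Doublets were scored with Scrublet's method, and the 908 highest were left out only as an alternative.

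For genes, expected counts were summed over cells, rounded for intervals and divided by the summed total (CPM). Ratios in the text carry exact conditional binomial 95% intervals, shares carry exact Clopper-Pearson intervals (for 0 cells also the limit of 3 counts), and calls use log2 ratios with 5 CPM added. The text names the 8 genes, the 2 highest and 2 lowest measured genes of each list, and outside the lists the 12 highest and 12 lowest of the genes with at least 50 CPM and 50 counts, leaving out mitochondrially encoded, ribosomal protein and unannotated Gm or Rik genes. Other list genes, single-cell shares of a gene and values without 1 cell were chosen after values were seen. The cells, the lists and the markers were chosen with earlier results of these data known. The ratio intervals were checked on simulated counts. Coordinates are from GENCODE M21 and RefSeq.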

Additional observations from a re-analysis of the deposited data

How the results depend on the processing

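No paired analysis was possible because each group was 1 library. Depth, the 1 library and the unknown choice of barcodes before deposit limit these values, and no replicate check exists. With at least 2 of the 8 genes in place of 3, the share of retained cells was 2.86%, the share of the fibroblast-like class 2.94%, the summed cell cycle lists had a log2 ratio of 1.5 (2.30 as reported), 116 genes outside the cell cycle lists were at least 2-fold higher (297 as reported) and 8 were lower by that much (89 as reported). With at least 4 genes these were 0.948%, 0.873% and 2.51, with 161 genes lower. Thinned to 1000 UMIs the shares were 0.300% and 0.259%, and to 2500 UMIs 0.684% and 0.620%. With a class taken from the markers of each cell, 87.1% of the proliferating cells were fibroblast-like. The summed lists had a log2 ratio of 2.35 without the highest doublet scores, 2.39 with equal weight for each cell and 2.33 without the cluster led by Rxfp1. Genes lower were 134 with equal weight and 229 with 1 CPM added. The other 50 values of the main results moved by less than their intervals or 1.5 times, and no called value changed sign under these settings. Leaving out, for each of 72 named genes, the 1 cell with most of its UMIs, 5 of 48 calls were lost (Apod, Mcm4, Ccne1, E2f1, Timp1), Apod with a change of sign to -0.94, and 6 further genes passed 2-fold lower. Thinning to 2500 UMIs, leaving out the cell with most UMIs of a gene, the immunoglobulin-rich barcode or the Rxfp1 cluster, weighting by cluster and nearest cells were alternatives chosen after seeing the data. The causes were not tested.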

Other observations

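One proliferating barcode stood apart by its immunoglobulin transcripts. It lay in the fibroblast-like cluster led by Meg3, Apod and Sfrp4, had 25502 UMIs and carried all 8 genes of the rule. It held 1483 UMIs of Igkc, 378 of Igha and 280 of Jchain and 0 of Ighm, genes typical of plasma cells that make IgA, while no other proliferating cell had more than 20 UMIs of these 4 genes together and no other cell of the library more than 28. The same barcode had a UMI of 6 of the 8 B or plasma markers, with 4 UMIs of Mzb1. It had 490 UMIs of the 8 fibroblast markers, 0 of the 6 shared leukocyte markers, 77 of the S phase list and 81.3 of the mitotic lists, and its doublet score was not among the 908 highest. Whether it was 1 cell or more than 1 was not tested.

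Cdkn2a, which encodes the inhibitors p16 and p19Arf and had under 10 CPM in both sums, had a UMI in 10 of the 95 fibroblast-like proliferating cells (10.5%), against 0.920% of the other fibroblast-like cells, at 9.63 and 1.15 CPM on 13 UMIs. The gene was chosen after its values were seen.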
